A study of Homo sapiens with 10 samples.

Results

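This report describes 46 genes of DNA replication and S phase in MV4-11 cells, an established acute myeloid leukemia (AML) line of monocytic type that carries an internal tandem duplication of FLT3. The genes were chosen by symbol and cover the MCM2-7 helicase and its activators, origin licensing, the sliding clamp and its loader, single-strand binding, the replicative polymerases, maturation of the lagging strand, and the entry into S phase. All 46 were found among the 19590 genes of the RNA-Seq table, and all 46 passed the filter on low values (an average of 10 or more normalized counts), as did 13110 genes in all. The study asked what the loss of the transcription factor IRF8 does to these cells. The control group holds 4 libraries of MV4-11 cells infected with a lentiCRISPRv2 vector that carries no guide against IRF8, and the IRF8 KO group holds 4 libraries of cells infected with the vector carrying Cas9 and a guide RNA against IRF8. All cells were selected with puromycin and grown in the same medium. The knockout cells were single-cell clones from limiting dilution, made with 2 guide RNAs, whereas which clone gave which library is not stated, so a difference between the groups can also be a difference between clones. The labels number the replicates from 1 to 4 in each group, and nothing says what a number marks or that the replicates came from separate cultures, so the p-values measure only the spread between these libraries. The comparisons are IRF8 KO against control, and, inside each genotype, replicates 1 and 3 (called odd here) against replicates 2 and 4 (even). The members and the split into odd and even replicates were both chosen with earlier results of these data known, so the odd against even p-values describe a known split and are not independent evidence of it.

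A cell copies its DNA from many origins. In G1 phase, ORC, CDC6 and CDT1 load the MCM2-7 helicase onto origins, and at the start of S phase cyclin E kinase and other factors add CDC45 and GINS, which turns the helicase on. Polymerase alpha with primase then lays down primers, RFC loads the PCNA clamp, polymerases delta and epsilon copy the strands, RPA covers the single strands, and FEN1 and LIG1 join the lagging-strand fragments. Many of these genes are transcribed together near the G1/S border under E2F factors, which are released when RB is phosphorylated, whereas most mitosis genes are transcribed later in the cycle. In RNA from a bulk culture, fewer cells in S phase and less of these transcripts per cell cannot be told apart. By flow cytometry, the paper reports more cells in S phase and fewer in G1 and G2 for a knockout clone than for control cells. Whether any library here came from that clone is not stated.

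Since the members are a textbook group of E2F targets, their promoters were read from the RefSeq promoter table (assembly GRCh38.p14), in windows of 300 bases that run from 250 before to 50 after each transcription start. Of the 46 members, 39 had a window, 51 windows in all, and the names without one are MCM4, MCM5, GINS4, RPA2, RPA3, POLD3 and CCNE2. The letters searched, on both strands, were TTTGGCGC, TTTCCCGC, TTTCGCGC, TTTGCCGC, TTTGGCGG and TTTCCCGG, which are forms of the E2F motif and can overlap each other when one reads into the reverse of another. One or more of them stood in 26 of the 51 windows (51%), against 5.33% of all 35116 windows in the table. Lists of 68 other replication and S phase genes and 44 mitosis genes were written from general knowledge to set beside the members, and 55 and 37 of their genes had a window. The share with a motif was 30.4% of 79 windows and 12.8% of 47. The letters TTTGAA and TTCGAA, forms of the CHR motif of mitosis genes, stood in 3.92% of the members' windows, 68.1% of the mitosis windows and 16.4% of all windows. A match is only a run of letters and not a bound site.

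The 100 bases before the start are shown for 10 members, with the E2F motif letters in capitals. The first 8 hold motifs, and among them are PCNA and E2F1, whose genes lie on chromosome 20, and CDT1, which differed least in the control. The last, CCNE1 and TK1, hold none in any of their windows and had the largest differences between odd and even control replicates. Sequences are written 5′ to 3′ on the strand of the gene.
MCM6, chr2:135876444-135876543, minus strand: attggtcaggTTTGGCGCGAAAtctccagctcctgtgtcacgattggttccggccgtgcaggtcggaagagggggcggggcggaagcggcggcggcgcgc
PCNA, chr20:5126623-5126722, minus strand: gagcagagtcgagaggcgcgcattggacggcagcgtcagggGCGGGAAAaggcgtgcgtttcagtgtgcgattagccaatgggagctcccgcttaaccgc
GINS2, chr16:85688955-85689054, minus strand: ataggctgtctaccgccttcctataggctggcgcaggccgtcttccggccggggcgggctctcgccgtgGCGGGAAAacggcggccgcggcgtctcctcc
CDC6, chr17:40287779-40287878, plus strand: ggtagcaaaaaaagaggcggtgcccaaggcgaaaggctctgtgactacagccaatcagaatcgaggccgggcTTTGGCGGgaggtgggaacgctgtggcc
CDT1, chr16:88803689-88803788, plus strand: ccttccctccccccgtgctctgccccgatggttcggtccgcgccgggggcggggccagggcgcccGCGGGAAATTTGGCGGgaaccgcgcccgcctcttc
RFC3, chr13:33818049-33818148, plus strand: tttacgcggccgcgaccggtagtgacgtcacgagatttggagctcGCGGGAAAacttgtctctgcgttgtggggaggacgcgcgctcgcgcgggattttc
POLA2, chr11:65261862-65261961, plus strand: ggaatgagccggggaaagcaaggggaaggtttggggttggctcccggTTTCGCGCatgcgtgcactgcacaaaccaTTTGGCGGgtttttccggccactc
E2F1, chr20:33686386-33686485, minus strand: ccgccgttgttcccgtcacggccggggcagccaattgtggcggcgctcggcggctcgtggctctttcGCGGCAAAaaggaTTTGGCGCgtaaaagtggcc
CCNE1, chr19:29811891-29811990, plus strand: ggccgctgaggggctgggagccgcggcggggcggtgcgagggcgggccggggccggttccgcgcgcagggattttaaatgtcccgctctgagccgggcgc
TK1, chr17:78187205-78187304, minus strand: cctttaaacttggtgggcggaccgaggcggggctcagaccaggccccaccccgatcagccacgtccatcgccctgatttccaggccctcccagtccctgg
The MCM6 run holds 2 overlapping motifs that read as one block, and the CDT1 run holds 2 motifs that touch each other.

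By reads recovered from the deposited values, the libraries held 39560072 to 65519047 reads on genes, so every member, none of which was below 162.2 normalized counts in any library, rests on many reads. IRF8, the targeted gene, had 36891, 15192, 43016 and 22535 normalized counts in control replicates 1 to 4 and 6377, 2401, 12903 and 7819.7 in IRF8 KO replicates 1 to 4. Every knockout library was below every control library, whereas the transcript remained present in all 4. By limma, IRF8 differed by -2.11 on the log2 scale (standard error 0.51, adjusted p = 0.0222), and the adjusted p rose to 0.0586, 0.0576 and 0.0529 without control replicate 1, control replicate 3 or IRF8 KO replicate 1. In both genotypes the odd libraries averaged above the even ones for IRF8, with log2 differences of 1.11 in the control (adjusted p = 0.162) and 1.07 in IRF8 KO (adjusted p = 0.254), neither of which passed the test. The summed myeloid markers CD33, ITGAM, CSF1R, LYZ, FLT3 and SPI1 were 75781 to 86519 normalized counts in the control and 82721 to 311770 in IRF8 KO libraries, the upper value coming from LYZ in IRF8 KO replicate 1. LYZ, the lysozyme gene, was higher in the odd control libraries, at 12725, 1734, 14757 and 2630 in replicates 1 to 4. It had 248600, 13767, 39385 and 32984 in IRF8 KO. Of the other myeloid markers, CD33 and SPI1 were also higher in the odd control libraries. FLT3 (45083, 66773, 43847 and 66057) and CSF1R (5716.5, 7184, 4778 and 6085) were higher in the even ones. ITGAM, with no such split, had 62.1 to 112 in the control and 406 to 1152 in IRF8 KO. CD79A, a B cell receptor component, was higher in the even libraries of both genotypes, at 146, 410, 112 and 391 in the control and 136, 881, 245 and 467 in IRF8 KO, with MS4A1, another B cell gene, at 0 in every library. Marker lists of T cells and erythroid cells summed to at most 2.59 and 6.77. The epithelial list summed to 1473 to 3728 in the control and 60.7 to 242 in IRF8 KO, from KRT8 and KRT18, with KRT19 at 0 and EPCAM at most 1.88. KRT8 was also higher in the even control libraries (3187 and 2777) than in the odd ones (1050 and 973). KRT18 showed no such split, at 477, 539, 499 and 451 in control replicates 1 to 4. The part of these differences in the results below was not tested.

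In the control cells, the replication genes differed widely between replicates. All 46 members were higher in replicates 1 and 3 than in replicates 2 and 4, without overlap between the odd and even values, against 39.2% of all tested genes without overlap in this direction and 42% in the other. With upper quartile or quantile scaling, CDT1 alone turned to below 0 and the other 45 stayed above. The median log2 difference of the members was 1.03, a 2.04-fold higher level, while the median over all tested genes was -0.02. Limma called 42 members higher and 0 lower at an adjusted p below 0.05, against 16.6% of all tested genes called higher and 15.2% called lower (2182 and 1997 genes, or 1613 and 2530 with upper quartile scaling). None of the members was lower at an unadjusted p below 0.05. EdgeR and DESeq2 called 40 and 42 members higher and 0 lower, without a share of all tested genes to set beside them. The adjusted p-values of the 42 ran from 0.00193 to 0.0457. With the study's own thresholds (2-fold or more, and p below 0.01 before adjustment), 26 members were higher, against 4.1% of all tested genes higher and 7.21% lower. Each of these contrasts sets 2 libraries against 2, and without control replicate 1 or 3 the calls fell to 23 and 26 members, with the remaining library taken to vary like the others.

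**Figure D1:**
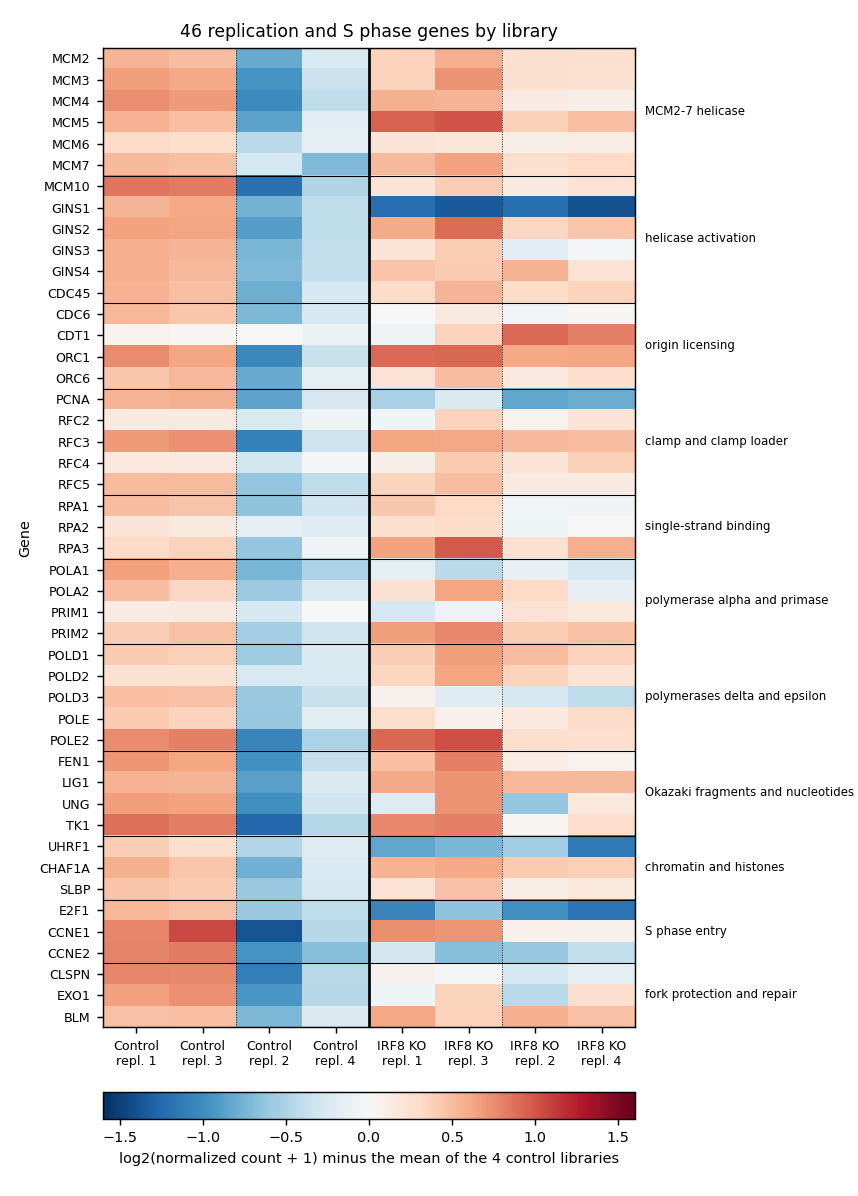
Heat map of the 46 genes (rows, grouped by role) in the 8 libraries (columns, odd replicates first in each genotype). Colour gives log2(normalized count + 1) minus the mean of the 4 control libraries. The odd control columns are red and the even ones blue in nearly every row, whereas the IRF8 KO columns resemble each other. GINS1, UHRF1 and E2F1 are blue in all 4 IRF8 KO columns, as are PCNA, CCNE2 and POLA1.

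The largest difference was that of CCNE1, which encodes cyclin E1, a partner of CDK2 at the G1/S border. It had 726, 162, 884 and 309 normalized counts in control replicates 1 to 4 and 709, 447, 695 and 444 in IRF8 KO replicates 1 to 4, so that control replicate 2 was the lowest of all and control replicate 3 the highest. The odd against even log2 difference was 1.84 (standard error 0.29, adjusted p = 0.00451) in the control and 0.65 (adjusted p = 0.193) in IRF8 KO. CCNE2, the other cyclin E, had 873, 260.5, 899.9 and 314 in the control and 411, 329.8, 313 and 382 in IRF8 KO. Its odd control values were above those of every knockout library, and the log2 difference was 1.63 (standard error 0.20, adjusted p = 0.00217) in the control and 0.02 in IRF8 KO (95% interval -0.45 to 0.48).

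TK1, the thymidine kinase of the salvage pathway, had 8325, 1901, 8010.1 and 3303 normalized counts in the control and 7732, 4609.9, 7906 and 5503 in IRF8 KO. Both genotypes had their odd libraries above their even ones, with log2 differences of 1.70 (standard error 0.24, adjusted p = 0.00315) and 0.63 (adjusted p = 0.143). POLE2, a subunit of polymerase epsilon, showed the same order with 1828, 517, 1889 and 761 in the control and 2036, 1313, 2205 and 1299.5 in IRF8 KO. Its log2 difference was 1.57 (adjusted p = 0.00202) in the control and 0.70 in IRF8 KO (95% interval 0.27 to 1.12, adjusted p = 0.0656), the largest value above 0 of any member in the knockout.

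MCM10, which helps to start the helicase, had 7829.8, 1887, 7679 and 3102 normalized counts in the control and 4982, 4770.5, 5753 and 5099 in IRF8 KO. The 4 knockout values lay between the odd and the even control values, with a log2 difference of 1.68 (adjusted p = 0.00258) in the control and 0.12 (95% interval -0.39 to 0.63) in IRF8 KO. CLSPN, the fork protection and checkpoint protein claspin, had 6238, 1685, 6196 and 2661 in the control and 3789, 2983, 3594 and 3265 in IRF8 KO, again with the knockout values between both sets of control values. Its log2 differences were 1.55 (adjusted p = 0.00256) and 0.24 (adjusted p = 0.474).

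Across the roles, the rise in the odd control replicates was broad. All 6 MCM2-7 genes were called, with log2 differences from 0.58 (MCM6) to 1.43 (MCM4). The 6 genes that activate the helicase, CDC45, MCM10 and the GINS subunits, ran from 1.04 (CDC45) to 1.68. Of the licensing genes, ORC1 (1.39), CDC6 (0.98) and ORC6 (0.97) were called and CDT1 (0.09, adjusted p = 0.701) was not. Of the clamp and its loader, RFC3 (1.41), PCNA (1.11) and RFC5 (1.02) were called, whereas RFC4 (0.32, adjusted p = 0.142) and RFC2 (0.31, adjusted p = 0.169) were not. The RPA subunits, which bind single-stranded DNA, had the smallest median of the roles, 0.69, with RPA1 at 0.95, RPA3 at 0.69 and RPA2 at 0.36, all called.

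Of polymerase alpha and primase, POLA1 (1.24), PRIM2 (0.86) and POLA2 (0.83) were called and PRIM1 (0.27, adjusted p = 0.146) was not. All 5 subunits of polymerases delta and epsilon were called, from POLD2 (0.48) to POLE2. FEN1 (1.33) and LIG1 (1.10), which process and seal lagging-strand fragments, and UNG (1.31), which removes uracil from DNA, were called together with TK1. CHAF1A (1.01), a histone chaperone subunit, SLBP (0.88), which binds histone mRNA, and UHRF1 (0.67), which reads hemimethylated DNA, were called as well. So were EXO1 (1.39), an exonuclease, BLM (0.95), a helicase of repair, and E2F1 (1.00), itself a G1/S transcription factor. The 24 members with an E2F motif in a window had a median log2 difference of 1.11 and the 15 with none had 0.95, with ranges of 0.09 to 1.68 and 0.27 to 1.84, so the letters did not separate large from small differences.

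In the IRF8 KO cells, the same split of replicates gave a smaller difference in most members. The median log2 difference of the members was 0.22, a 1.17-fold higher level in the odd replicates, with 40 members above 0 and 6 below. Limma called 0 members higher and 1 lower (CDT1), against 2.37% of all tested genes called higher and 4.08% lower. At an unadjusted p below 0.05, 10 members were higher and 2 lower, against 1828 and 1760 of the 13110 tested genes. EdgeR called CDT1 alone, and DESeq2 called CDT1 lower and RPA1, RPA2 and POLE2 higher. The shares of all tested genes called by these tools are not given here, so their counts cannot be judged against them. The odd and even values did not overlap in 25 members that were higher and 2 that were lower, against 25.3% of all tested genes higher and 24.1% lower. The difference was therefore not absent in every member, whereas the 95% interval of 40 members lay below a log2 difference of 1 and no member reached 1 in size. The largest values above 0 were those of POLE2 (0.70), CCNE1 (0.65) and TK1 (0.63), and 5 members in all were at 0.5 or more, none of them called by limma.

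CDT1 stood apart from the other members and is described after its values were seen. CDT1 protein is degraded once S phase starts, and only its RNA was measured here. It had 4658, 4488, 4548 and 4176 normalized counts in the control, the narrowest range of the 46 members in the control on the log2 scale, and 4217, 8398, 5782 and 7819 in IRF8 KO. The even knockout libraries were above all 6 others, and the log2 difference in IRF8 KO was -0.71 (standard error 0.16, 95% interval -1.08 to -0.35, adjusted p = 0.042). The call was lost without any one of control replicates 1 to 4 or of IRF8 KO replicates 2 and 4, with adjusted p-values of up to 0.171. PRIM1, the catalytic primase subunit, had the same direction in IRF8 KO at a log2 difference of -0.38 (adjusted p = 0.116).

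**Figure D2:**
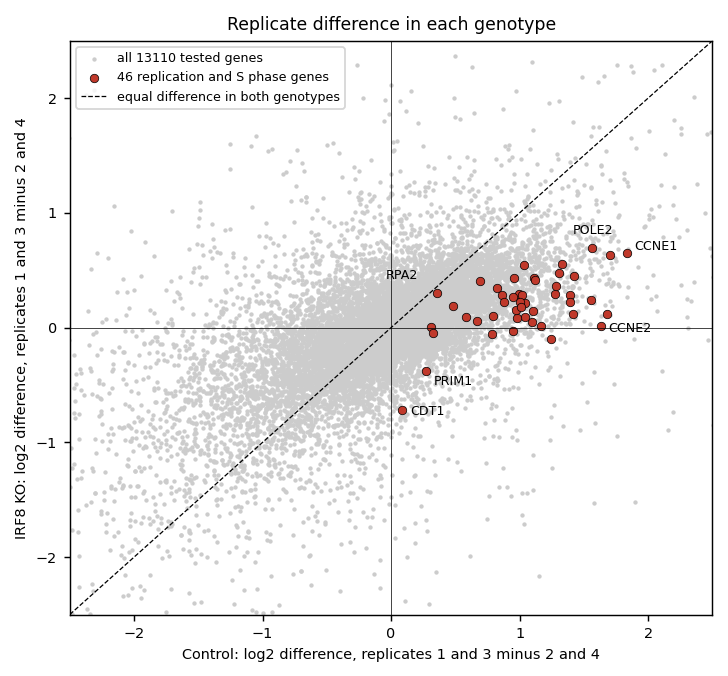
Scatter plot of the odd minus even log2 difference in the control (horizontal axis) and in IRF8 KO (vertical axis), with the 46 genes in red over all 13110 tested genes in grey, 302 of which lie outside the axes. The dashed line marks an equal difference in both genotypes. All 46 red points lie right of 0 and below the line (CDT1 crosses 0 and RPA2 the line with upper quartile or quantile scaling), from CDT1 at 0.09 and -0.71 to CCNE1 at 1.84 and 0.65.

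The difference between the genotypes in the odd against even effect was then tested itself, as an interaction. All 46 members were below 0, with a median of -0.82 on the log2 scale and a range from -1.61 (CCNE2) to -0.05 (RPA2), the latter being above 0 with upper quartile or quantile scaling. Limma called 0 members and 0 of all 13110 tested genes in either direction (0%), with adjusted p-values of the members between 0.124 (POLA1) and 0.909 (RPA2). At an unadjusted p below 0.05, 37 members were lower and 0 higher, against 8.4% of all tested genes lower. EdgeR called 0 members and DESeq2 called 21, all lower, against 3.2% of all tested genes called lower by DESeq2. The fit with the replicate number as a block called 0. Without IRF8 KO replicate 3, which leaves 1 library in the odd knockout group, all 46 members were again below 0. The interaction was -1.34 for POLA1 (standard error 0.20, 95% interval -1.81 to -0.87), -1.61 for CCNE2 (standard error 0.28), -1.56 for MCM10 (standard error 0.31) and -1.15 for GINS1 (standard error 0.21), none of which passed the adjustment. So the interaction stayed below 0 for 45 members under every scaling tried, and for RPA2 under 2 of the 4. The call on it depended on the test. An interaction below 0 is not a smaller effect in every member. CDT1 was at 0.09 in the control and -0.71 in IRF8 KO, and PRIM1 at 0.27 and -0.38. Both were thus larger in size in the knockout, with the sign reversed.

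The spread of the libraries restates the same values, for members and a split chosen with results known, and is not separate support. The range over the 4 control libraries was wider than that over the 4 IRF8 KO libraries in 43 members (93.5%), against 43.8% of all tested genes, with median ranges of 1.32 and 0.39 on the log2 scale. The odd against even difference was larger in size in the control in 44 members (95.7%), against 64.8% of all tested genes. The mean of the IRF8 KO libraries lay between the odd and the even control means in 32 members (69.6%), against 37.8% of all tested genes, and above both in 10 and below both in 4. Relative to the control mean, the median deviation of the members was 0.54 and 0.49 in control replicates 1 and 3, and -0.73 and -0.31 in control replicates 2 and 4. In IRF8 KO replicates 1 to 4 it was 0.29, 0.15, 0.48 and 0.23. All 4 knockout libraries lay above the even control libraries, and replicates 1, 2 and 4 below the odd ones, whereas IRF8 KO replicate 3 was close to control replicate 3. Without the 3 members on chromosome 20, IRF8 KO replicate 3 was at 0.50 and control replicate 3 at 0.48.

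**Figure D3:**
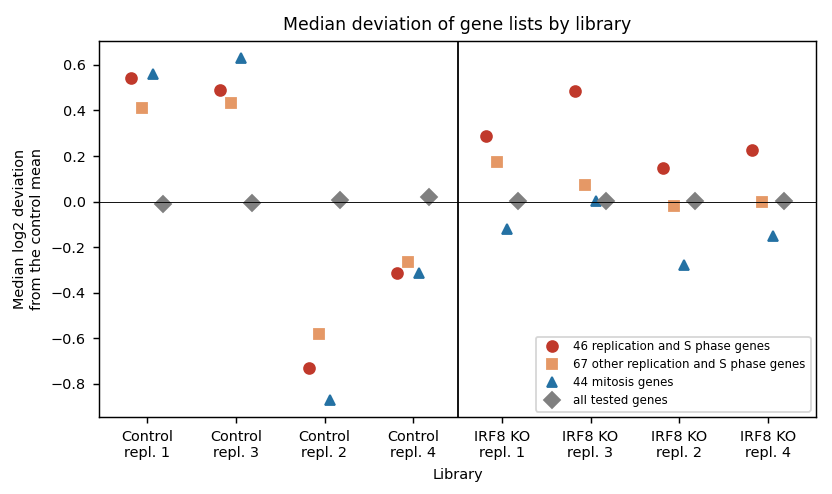
Median log2 deviation from the control mean, by library, for the 46 genes (circles), 67 other replication and S phase genes (squares), 44 mitosis genes (triangles) and all tested genes (diamonds). The circles lie at 0.54 and 0.49 in the odd and at -0.73 and -0.31 in the even control libraries, and between 0.15 and 0.48 in the 4 IRF8 KO libraries, while the diamonds stay near 0 throughout.

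The split of replicates was not itself missing from the knockout libraries. Over all tested genes, 4179 were called between odd and even replicates in the control and 846 in IRF8 KO. The stress genes DDIT3, which encodes the factor CHOP, and CHAC1, a glutathione-degrading enzyme, were looked at after their values were seen. DDIT3 had 489, 3188, 495 and 3263 normalized counts in the control and 587, 2761, 792 and 3028 in IRF8 KO. It was lower in the odd libraries of both genotypes, by log2 differences of -2.71 (adjusted p = 0.000218) and -2.08 (adjusted p = 0.00113). CHAC1 had log2 differences of -4.68 (adjusted p = 0.000208) and -3.43 (adjusted p = 0.00121). For neither did the interaction pass the adjustment (adjusted p = 0.249 and 0.192). The 2 even libraries of each genotype thus shared high levels of these genes, and in the control they were also those with the low replication genes. The part of one in the other was not tested.

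**Figure D4:**
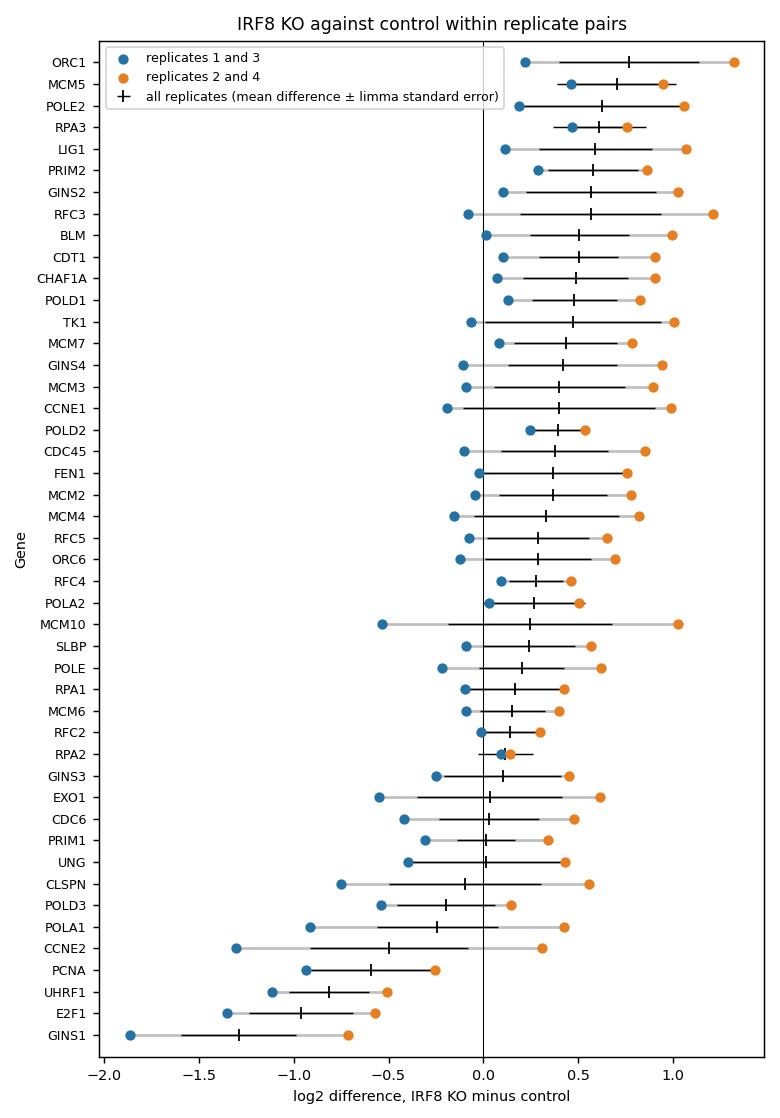
Difference between IRF8 KO and control for each of the 46 genes (rows, sorted), as log2, within replicates 1 and 3 (blue), within replicates 2 and 4 (orange) and over all replicates (black tick with the limma standard error). Most blue points lie near or below 0 and most orange points above it, whereas GINS1, UHRF1, E2F1 and PCNA are below 0 in both.

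Between IRF8 KO and control over all replicates, most replication genes stood slightly higher in the knockout, without passing the test. Of the 46 members, 38 were above 0 and 8 below, with a median log2 difference of 0.29, while the median over all tested genes was 0.00 to 2 decimals. Without control replicate 2, the library with the lowest replication genes, 29 were above 0 and 17 below. Limma called 0 members higher and 3 lower, GINS1, UHRF1 and E2F1, against 8.65% of all tested genes called higher and 9.56% lower. At an unadjusted p below 0.05, 4 members were higher (CDT1, RPA3, PRIM2 and POLD2) and 3 lower. Of the 13110 tested genes, 2041 were higher and 2102 lower, so both shares were smaller in the members. EdgeR and DESeq2 each called 0 members higher and 3 lower, without a share of all tested genes to set beside them. The control and IRF8 KO values did not overlap in 0 members that were higher and in 3 that were lower, against 12.3% and 13% of all tested genes. With the study's thresholds 0 were higher and 1, GINS1, was lower, against 4.78% and 6.12% of all tested genes. The spread between the control replicates limited this comparison, with a median distance of 0.64 on the log2 scale from the estimate to the bound of its 95% interval.

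The fits that take up the replicate difference called more. With the replicate number as a block, 4 members were called higher, against 14.2% of all tested genes, and 4 lower, against 14.6%. The 4 higher were MCM5 (log2 difference 0.70), RPA3 (0.61), PRIM2 (0.58) and POLD2 (0.39), and PCNA (-0.59) joined the 3 lower. With odd or even as a term, a fit chosen after seeing the data, 7 were higher, against 16.5% of all tested genes, and 4 lower, against 16.6%, with ORC1, POLE2 and POLD1 added to the higher ones. In each of these fits the share of members called was close to or under that of all tested genes.

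Within the odd replicates alone, 30 of the 46 members were lower in IRF8 KO, with a median log2 difference of -0.09. Limma called 0 higher and 8 lower, against 14.3% and 14% of all tested genes. These were GINS1 (-1.87), E2F1 (-1.35), CCNE2 (-1.30), UHRF1 (-1.12), PCNA (-0.94), POLA1 (-0.91), CLSPN (-0.75) and POLD3 (-0.54). At an unadjusted p below 0.05, 1 member was higher and 11 were lower, against 2668 and 2739 of the 13110 tested genes. EdgeR and DESeq2 each called 0 members higher and 8 lower, again without a share of all tested genes. Within the even replicates, 42 of 46 were higher in IRF8 KO, with a median of 0.67, a 1.596-fold higher level. Limma called 26 higher, against 9.27% of all tested genes, and 2 lower, GINS1 (-0.72) and E2F1 (-0.57), against 9.93%. The largest rises in the even replicates were those of ORC1 (1.32, adjusted p = 0.00589), RFC3 (1.21, adjusted p = 0.01) and LIG1 (1.07, adjusted p = 0.0103). The count of 28 fell to 8 without control replicate 2 or IRF8 KO replicate 4, and to 18, 17 and 16 without control replicate 1, control replicate 3 or IRF8 KO replicate 2. The test of the difference between the odd and the even comparison is the interaction given above, which limma did not call for any member.

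GINS1, a subunit of the GINS complex of the active helicase, had 3524, 1428, 3709 and 1826 normalized counts in control replicates 1 to 4 and 1035, 1049, 949 and 921 in IRF8 KO replicates 1 to 4. All knockout values were below all control values and close to each other. The log2 difference was -1.29 (standard error 0.30, adjusted p = 0.0187, exact two-sided permutation p = 0.029, the smallest that 4 against 4 libraries allow), and the adjusted p was 0.0505 and 0.0517 without IRF8 KO replicate 3 or 4. The other GINS subunits did not go with it, at 0.57 for GINS2, 0.42 for GINS4 and 0.10 for GINS3, none called. UHRF1 had 63293, 34985, 58652 and 42130.2 in the control and 27127, 32895, 29156 and 22108 in IRF8 KO, again without overlap. Its log2 difference was -0.81 (standard error 0.21, adjusted p = 0.0291), and it was not called without control replicate 1 or 3 or without IRF8 KO replicate 1, 3 or 4 (adjusted p up to 0.0808). E2F1 had 3788, 1734, 3619 and 1966 in the control and 1255, 1332, 1669.7 and 1156 in IRF8 KO, where the highest knockout library was just under the lowest control library. Its log2 difference was -0.96 (standard error 0.27, adjusted p = 0.0414), with adjusted p-values of up to 0.107 without control replicate 1 or 3 or without any one of the knockout replicates. Over 20 alternative settings, these included, the E2F1 call was kept in 13.

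Of these, GINS1 and E2F1 lie on chromosome 20, as does PCNA, and chromosome 20 as a whole was lower in the knockout libraries. The median log2 difference over the 351 tested genes of the chromosome was -0.93, and each of the 4 knockout libraries lay between -0.95 and -0.91 against -0.02 to 0.02 in the control. PCNA, the sliding clamp, had 15511, 5939.6, 15784 and 8793 normalized counts in the control and 7419, 5982, 9020.2 and 6150.3 in IRF8 KO, where control replicate 2 was below every knockout library. Its log2 difference was -0.59 (standard error 0.32, adjusted p = 0.24), and PCNA was called in the fits above and without control replicate 2 (adjusted p = 0.0485). PCNA has pseudogene copies, and the treatment of reads that fit several places was not given in the sources used here. Relative to the median of the chromosome 20 genes of the same library, GINS1 was -0.39 on the log2 scale (exact two-sided permutation p = 0.429), E2F1 -0.06 (p = 0.943, permutation) and PCNA 0.31 (p = 0.4, permutation). Over all replicates, neither value passed the test, and 23.9% and 45.3% of the tested chromosome 20 genes were as low as GINS1 and E2F1 or lower. The relative values went opposite ways in the replicates, at -1.04 within the odd and 0.27 within the even ones for GINS1, -0.53 and 0.41 for E2F1, and -0.11 and 0.73 for PCNA, with 2 libraries against 2 and no test. The control libraries carried this split, with GINS1 relative to the chromosome at 1.14 and 1.17 in the odd and -0.24 and 0.04 in the even ones, against 0.07 to 0.22 in the knockout. Without the 3 genes, 1 member was called between the genotypes, UHRF1, and the odd replicates gave 5 lower in place of 8.

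**Figure D5:**
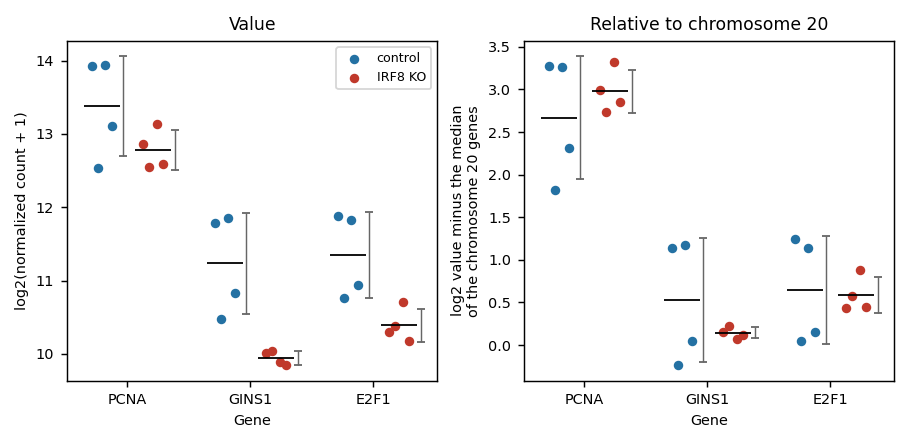
The 3 members on chromosome 20 in the 4 control (blue) and 4 IRF8 KO libraries (red), as log2(normalized count + 1) on the left and minus the median of the tested chromosome 20 genes of the same library on the right. Points are libraries in the order of replicates 1 to 4, lines are means and bars beside them are SD (n = 4). On the left all red means are below the blue ones, whereas on the right the difference is -0.39 for GINS1, -0.06 for E2F1 and 0.31 for PCNA.

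The other genes of replication and the cell cycle were read in the same way. Of the 67 other replication and S phase genes tested, out of 68 listed, 54 were called higher in the odd control replicates and 0 lower. The shares of all tested genes were 16.6% and 15.2%. The median log2 difference of the list was 0.83. The largest were DCTPP1 (1.73), which cleans the nucleotide pool, RRM2 (1.68), a ribonucleotide reductase subunit, and E2F7 (1.499), a repressing E2F factor. In IRF8 KO, POLE3 (0.54, adjusted p = 0.0459) was the only call, against 2.37% of all tested genes called higher and 4.08% lower. Between the genotypes 37 were above 0 and 30 below, and limma called 3 higher, CHTF8 (0.72), ORC3 (0.44) and RNASEH2B (0.42), and 3 lower. Of all tested genes, 8.65% were called higher and 9.56% lower, so both shares were smaller in this list. The called lower ones were E2F7 (-2.66, adjusted p = 0.00352), MCMBP (-0.97), a partner of the MCM proteins, and RBL1 (-0.81), the RB relative p107, whose gene is on chromosome 20. E2F7 had 608, 167, 712 and 322 normalized counts in the control and 59.7, 66.9, 65 and 53.1 in IRF8 KO, so that its knockout level was below even the lowest control library.

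The 44 mitosis genes showed an odd against even difference in the control like that of the replication genes, with a median of 1.16. Limma called 39 higher and 0 lower, against 16.6% and 15.2% of all tested genes. The 3 largest were BIRC5 (1.69), KIF20A (1.61) and CCNB1 (1.56), which act in chromosome segregation, cytokinesis and mitotic entry. In IRF8 KO limma called 0 of the mitosis genes, against 2.37% of all tested genes called higher and 4.08% lower, with a median of 0.10. At an unadjusted p below 0.05, 2 were higher and 0 lower, against 1828 and 1760 of the 13110 tested genes. Between the genotypes 0 were called, against 8.65% of all tested genes called higher and 9.56% lower. At an unadjusted p below 0.05, 1 was higher and 5 lower, against 2041 and 2102 of all tested genes. The median of the mitosis genes was -0.14 where that of the replication genes was 0.29. Within the odd replicates limma called 24 mitosis genes and 8 replication genes lower in IRF8 KO, against 14% of all tested genes. Of the 2 lists, 42 of 44 and 30 of 46 were below 0. Within the even replicates limma called 6 mitosis genes and 26 replication genes higher, against 9.27% of all tested genes, with 36 and 42 above 0. The median deviation of the mitosis genes in IRF8 KO replicates 1 to 4 was -0.12, -0.28, 0.00 and -0.15, below that of the replication genes in each of the 4 libraries. This difference between the lists is a description and was not tested.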

How the data were processed

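RNA-Seq libraries of 4 control and 4 IRF8 KO replicates of MV4-11 cells were used, and the ChIP-Seq samples were not analysed here. The authors made stranded mRNA libraries, used RNA-Star and the GENCODE annotation for alignment, counted reads per gene with featureCounts and divided each library by a DESeq2 size factor. The processing notes name hg19 and hg38 without saying which was used for RNA-Seq. The deposited signal per gene is thus a normalized read count, for 19590 genes. The control columns are named as wild type with a replicate number and were taken as the control replicates of that number, and 0 value columns were left out. The authors' table of the comparison (fold changes, errors and p-values) was not used.

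The lowest value of a library gave the value of a single read, and 100% of values were then whole within 0.01 reads. Values were tested as log2(normalized count + 1) with limma 3.58.1 in R 4.3.3 for the 13110 genes that averaged 10 or more. The prior variance was robust and followed a trend, with Benjamini-Hochberg adjustment over all of them and a call at an adjusted p below 0.05. Differences on this scale understate the change of low genes. A first fit compared the 2 groups, and a second held 4 groups of 2 libraries (odd and even replicates of each genotype) and gave the odd against even differences, their interaction and the comparisons within odd or even replicates. Scripts were tested on simulated data. EdgeR (4.0.16) and DESeq2 (1.42.0), both run on recovered reads, and the settings in the closing section, were alternatives. Single values were compared by exact two-sided permutation tests.

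The members, the odd and even split and the gene lists were chosen with earlier results of these data known. Values in every library are given by a rule for IRF8, members called between the genotypes, members on chromosome 20, members called in the interaction and the 6 members with the largest odd against even difference in the control. Of the other lists, up to 3 rises and 3 falls are named. CDT1, POLE3, DDIT3 and CHAC1, E2F7 by library, and the markers LYZ, FLT3, CSF1R, ITGAM, KRT8, KRT18 and CD79A by library, were added after their values were seen. Chromosomes came from RefSeq genes of GRCh38.p14 by symbol, which matched 12992 of the tested genes. Same-numbered control and IRF8 KO libraries deviated together from their group means across genes (r of 0.368, 0.478, 0.452 and 0.502 for replicates 1 to 4). Differently numbered odd libraries also went with odd ones (r of 0.467 and 0.406) and even with even ones (r of 0.396 and 0.411). Control replicate 1 went more with IRF8 KO replicate 3 (0.467) than with IRF8 KO replicate 1 (0.368). So the values group the libraries as odd and even, and a pairing by number was not shown for the odd ones. No pair of libraries agreed within sampling noise. The sum of the B cell marker list is not reported here.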

Additional observations from a re-analysis of the deposited data

Results flagged for a closer look

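No result met a rule for a closer look. Of the 92 sets of 4 libraries tested for a value far from the others, 0 had one.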

How the results depend on the processing

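Of the 46 members, 3 were called between IRF8 KO and control, 42 between odd and even replicates of the control, 1 between those of IRF8 KO and 0 in the interaction, and these counts stayed within 1.5 times under pseudocounts of 0.5 and 5, other filters on low counts, upper quartile, quantile and TMM scaling, and edgeR. Under the replicate block, 8 members were called between the genotypes and 0 in the interaction, and the odd against even differences could not be fitted, since the block holds them. With odd or even as a term, 11 were called between the genotypes. DESeq2 called 4 members between odd and even replicates of IRF8 KO and 21 in the interaction, and limma without the trend called 0 of the former. At the study's thresholds the counts were 1 between the genotypes, 26 in the control, 0 in IRF8 KO, 8 (lower) in the interaction, 4 (lower) within odd and 7 (higher) within even replicates. Of all 13110 tested genes, 131 were lower and 219 higher in the interaction. Within odd replicates 863 were lower and 904 higher, and within even ones 811 and 520. Without the 3 members on chromosome 20, 1 was called between the genotypes and 5 within odd replicates. Relative to its chromosome, E2F1 turned from -0.06 to 0.062 (exact permutation p = 0.886) with no filter. The cause of these changes was not tested.

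Leaving out 1 library in turn gave 0 to 4 members between the genotypes, 23 to 43 between control replicates, 0 to 1 between IRF8 KO replicates, 0 to 5 in the interaction, 5 to 11 within odd and 8 to 33 within even replicates. The lowest counts between the genotypes were 0 without IRF8 KO replicate 3 or 4 and 1 without control replicate 1 or 3. The median log2 difference of the members ran from 0.06 to 0.47 between the genotypes, 0.81 to 1.28 in the control, 0.11 to 0.30 in IRF8 KO and -1.09 to -0.61 in the interaction. Relative to chromosome 20, where these settings give values with no test, E2F1 ran from -0.25 to 0.14, GINS1 from -0.64 to -0.17 and PCNA from 0.03 to 0.52. Upper quartile scaling moved the median of all genes between control replicates to -0.13, and 38 members were still called higher. The 4-group fit rests on 2 libraries a group, which limits the precision of the interaction, and the effect of read depth on it was not tested.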
